A study of Sus scrofa with 12 samples.

Results

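The heat shock protein genes of muscle described here were a list of 10 symbols: the small heat shock proteins HSPB1, HSPB6, HSPB7, HSPB8 and CRYAB, and the larger chaperones and partners HSPA8, HSPA5, DNAJB1, HSPH1 and HSP90AA1. The rule took these genes by name and used no measured value, and the list was proposed with earlier results of these data known. A row in the gene count tables was found for 9 of the 10, out of 25880 gene rows in all, and all 9 passed the filter on low counts, as did 13373 genes. HSPB7 was not analysed here. The counts came from longissimus dorsi (LD), the loin muscle, of 12 castrated male Iberian pigs sampled at slaughter, all fattened outdoors on acorns and grass, with 1 library per pig. The pigs had been chosen from the extremes of a commercial population for breeding value for myoglobin (MB), the oxygen-binding protein that gives meat its colour. The 6 pigs of the High MB group had 2.376 to 2.559 mg of MB per g of muscle, and the 6 pigs of the Low MB group had 1.226 to 1.58 mg/g. No treatment or heat challenge separated the groups.

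Heat shock proteins are molecular chaperones. The small ones bind unfolding proteins and hold them without using ATP, and in striated muscle HSPB1, HSPB6 and CRYAB sit on the sarcomere and cytoskeleton. The HSP70 proteins, with HSPA8 as the constitutive cytosolic member and HSPA5 (BiP) as the one of the endoplasmic reticulum, refold clients in ATP-driven cycles that DNAJ (HSP40) partners start and HSPH1 (HSP110), a nucleotide exchange factor, helps to reset. HSP90AA1 takes over later-stage clients. HSPB8 works with BAG3, HSPA8 and the ubiquitin ligase STUB1 in the removal of damaged sarcomere proteins such as filamin C. Many of these genes are switched on by heat shock factor 1 (HSF1) through heat shock elements, inverted repeats of GAA, whereas HSPA5 answers mainly to unfolded protein in the endoplasmic reticulum.

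Gene counts per library spanned 39046362 to 91318334 for High MB pigs, and 38914271 to 73324443 for Low MB pigs. Of the 12 libraries, 5 were deep, with more than 50000000 gene counts (High MB pigs 4 and 6, Low MB pigs 1, 5 and 6). High MB pig 2 stood apart from the others in the share of the 10 genes with the highest total counts over the 12 libraries. These genes took 13.0% of its counts, against 16.0% in Low MB pig 4 and 18.2% to 24.5% in the other pigs. The summed CPM (counts scaled to a fixed library size after TMM normalisation) of the muscle markers ACTA1, CKM and DES were 32157 in High MB pig 2, the lowest of the 12 and 0.474 times the median pig. Those of the fast fibre markers were 0.539 times the median pig. The summed CPM of the macrophage markers was 90.5 in it, 2.98 times the median pig. The muscle markers of Low MB pig 4 summed to 66198 CPM, within the range of the rest.

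The 250 bases before the RefSeq start (Sscrofa11.1) were searched on both strands for the heat shock element, because HSF1 acts through it. The forms searched were GAANNTTC and TTCNNGAA, with 2 units each, and the 3-unit forms in which GAANNTTC is followed by NNGAA, or TTCNNGAA by NNTTC, so that each 3-unit match also holds both shorter ones. Among 20664 promoters of the same length, 5.55% held GAANNTTC, 5.8% held TTCNNGAA and 0.324% held a 3-unit form. Of the 9 genes measured, HSPA8 held a 3-unit element at each of 2 places (bases -222 to -210 and -55 to -43 from the start) and HSPB1 a 2-unit element (bases -237 to -230). No match was found in these windows for the other 7. The windows of HSPA8 (chr9:49986761-49987010, minus strand), HSPB1 (chr3:10039442-10039691, minus strand) and, as an example without a match, HSPB6 (chr6:45184012-45184261, minus strand) are printed 5′ to 3′, with the heat shock elements in capitals.
HSPA8: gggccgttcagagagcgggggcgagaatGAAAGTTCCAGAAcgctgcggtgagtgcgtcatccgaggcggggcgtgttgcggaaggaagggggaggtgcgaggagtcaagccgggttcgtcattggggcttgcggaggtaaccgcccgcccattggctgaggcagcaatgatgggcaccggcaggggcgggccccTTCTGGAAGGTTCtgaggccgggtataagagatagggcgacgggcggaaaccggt
HSPB1: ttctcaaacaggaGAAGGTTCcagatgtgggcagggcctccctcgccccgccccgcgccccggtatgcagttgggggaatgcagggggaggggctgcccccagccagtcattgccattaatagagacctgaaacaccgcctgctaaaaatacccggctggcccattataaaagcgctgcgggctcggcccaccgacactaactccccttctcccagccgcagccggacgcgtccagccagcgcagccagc
HSPB6: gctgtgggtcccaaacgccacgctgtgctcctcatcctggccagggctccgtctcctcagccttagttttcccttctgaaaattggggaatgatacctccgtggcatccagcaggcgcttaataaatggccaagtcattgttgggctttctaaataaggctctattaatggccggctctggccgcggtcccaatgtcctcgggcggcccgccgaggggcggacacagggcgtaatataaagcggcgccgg
HSPA5 held CCAAT at 5 places (either strand), a sequence found in 32.0% of all these promoters, and no full endoplasmic reticulum stress element (ERSE), which 0.0678% of them held. TATAAA, found in 10.4% of promoters, lay at bases -85 to -80 of HSPB1 and at bases -16 to -11 of HSPB6. A match is a description of letters and not of a factor bound in these pigs, and RefSeq starts may lie away from the start used in muscle.

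The levels of the 9 genes in the LD spanned a wide range. On a scale of CPM per kilobase of RefSeq exon, the medians over the 12 pigs ran from HSPB1 (2945) and CRYAB (1898) through HSPA8 (635), HSPB8 (596), HSP90AA1 (570) and HSPB6 (354) to DNAJB1 (95.0), HSPA5 (37.5) and HSPH1 (29.9). HSPB1 was above CRYAB in 12 of 12 pigs, and CRYAB above HSPA8 in 12 of 12 (exact sign-flip tests, adjusted p = 0.00098 for each, over 8 neighbouring pairs). HSPA8 did not differ from HSPB8 beyond the spread between pigs (adjusted p = 0.764, exact sign-flip test), nor did HSPB8 from HSP90AA1 (adjusted p = 0.612, exact sign-flip test). Every other step in the order passed, with an adjusted p of 0.0078 or less. The order rests on RefSeq exon lengths (624 bases for HSPB1, 1234 for CRYAB), and the tests do not cover an error in these. Before division by length, CRYAB was above HSPB1, with on average 0.280% against 0.221% of the normalised counts. The counts of CRYAB and HSPB6 are themselves uncertain, as described below for each gene. The 9 genes together held between 0.534% (Low MB pig 1) and 2.22% (High MB pig 2) of the normalised counts. High MB pig 2 and Low MB pig 4 (2.08%) had the highest shares, and the other 10 pigs were at 1.33% or below.

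The comparison of the groups asked whether these genes differ between muscle of high and low MB breeding value. None of the 9 was called at an adjusted p under 0.10 with an absolute log2 FC over 0.58 (edgeR quasi-likelihood test), nor was any other gene, so that 0 of 9 stood beside 0.0% of the 13373 genes tested. At an unadjusted p under 0.05, 0 of the 9 passed against 8.46% of all genes (5.33% with higher and 3.13% with lower levels in High MB pigs). DESeq2 also called 0 of the 9, beside 29 of all genes (0.201%), and had 0 of the 9 at an unadjusted p under 0.05, beside 7.59%. The 2 groups overlapped in CPM for all 9 genes, whereas they did not overlap for 0.426% of all genes. The log2 FC (High MB minus Low MB) was positive for 5 genes and negative for 4, with a median of 0.06 (-0.02 over all genes). The median absolute log2 FC was 0.13, against 0.15 over all genes. With 12 pigs the exact permutation test of a single gene allows a smallest p of 0.00216. Per the study's methods full siblings were avoided, and closer detail of kinship was not used here, so p-values measure the spread between these 12 animals.

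**Figure D1:**
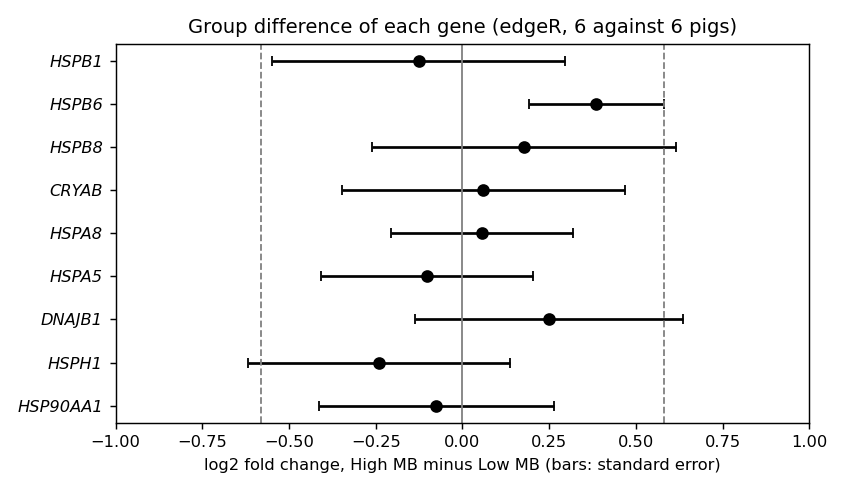
The plot gives the log2 FC of each of the 9 genes (High MB minus Low MB, edgeR, 6 against 6 pigs) with its standard error as a bar, and dashed lines at the limit of 0.58 in either direction. All 9 points lie inside the dashed lines, and HSPB6 has the highest value, 0.39 with a standard error of 0.19.

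HSPB6 (ENSSSCG00000023498, chr6:45181439-45184011, minus strand, 3 exons), also known as HSP20, is phosphorylated by cyclic nucleotide-dependent kinases and bound to actin-regulating partners in muscle. Its CPM was 738, 370, 915, 662, 781 and 465 in High MB pigs 1 to 6. In Low MB pigs 1 to 6 it was 414, 504, 538, 489, 608 and 456. High MB pigs 1, 3, 4 and 5 exceeded every Low MB pig, and High MB pig 2 was the lowest of all 12. High MB pigs averaged 655 ± 204 CPM and Low MB pigs 502 ± 67.1 CPM (SD, n = 6 each). The log2 FC was 0.39 (SE 0.19), with an edgeR p of 0.0672, adjusted p of 0.602 and an exact permutation p of 0.158. Without High MB pig 2 the log2 FC was 0.52 and the unadjusted edgeR p 0.0055, with the adjusted p over all alternatives no lower than 0.424. The direction was positive under all 22 alternatives run, from 0.23 in the deep libraries alone to 0.52.

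HSPB1 (ENSSSCG00000039962, chr3:10038074-10039441, minus strand), or HSP27, protects actin filaments. In High MB pigs 1 to 6 it measured 2072, 4685, 1888, 1741, 1298 and 984 CPM. In Low MB pigs 1 to 6 it measured 706, 1787, 1554, 4657, 1906 and 3218 CPM. One pig of each group, High MB 2 and Low MB 4, stood at nearly the same top level, and the rest of both groups intermingled. Between the groups the log2 FC was -0.13 (SE 0.42, edgeR adjusted p = 0.953). It changed sign when single pigs were left out, from -0.52 to 0.21.

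CRYAB (ENSSSCG00000036724, chr9:39638505-39643530, minus strand), or alpha B-crystallin, binds desmin and titin. It measured 2956, 5572, 2405, 2185, 2280 and 1779 CPM in High MB pigs 1 to 6. The Low MB pigs 1 to 6 had 1023, 1875, 2425, 6525, 1298 and 3326 CPM. The Low MB group held both the highest pig and the lowest one. Its log2 FC was 0.06 (SE 0.41, edgeR adjusted p = 0.983). In RefSeq, the span of CRYAB, introns included, overlaps that of HSPB2 by 3414 bases and that of C9H11orf1 by 3265 bases, both on the opposite strand. The overlap of their exons was not measured. The library kit does not mark strand and the strand setting of the counting was not given in the sources used here. Reads from any shared exon bases therefore cannot be told apart, and the level of CRYAB is uncertain.

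HSPB8 (ENSSSCG00000009844, chr14:33626125-33639824, minus strand), the partner of BAG3, had the widest range of the 9, 6.77-fold between the highest and the lowest pig. The High MB pigs 1 to 6 had 1188, 5056, 1502, 1060, 960 and 747 CPM. The Low MB pigs 1 to 6 had 859, 1268, 1622, 2858, 1045 and 1642 CPM. A single High MB pig, number 2, was above all the others, while the median was lower in the High MB group (1124 CPM) than in the Low MB group (1445 CPM). The log2 FC of the fit was 0.18 (SE 0.44, edgeR adjusted p = 0.934), and the difference of mean log2 CPM was -0.06. Without High MB 2 and Low MB 4 the log2 FC was -0.21.

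HSPA8 (ENSSSCG00000015140, chr9:49982278-49986760, minus strand), or HSC70, is the housekeeping HSP70 of the cytosol. It had 1652, 2919, 1386, 1469, 1052 and 1146 CPM in High MB pigs 1 to 6. In the Low MB pigs 1 to 6 it had 1123, 1283, 1547, 2279, 1028 and 1995 CPM. High MB 2, Low MB 4 and Low MB 6 were the highest pigs. The log2 FC was 0.06 (SE 0.26, edgeR adjusted p = 0.972).

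HSP90AA1 (ENSSSCG00000002535, on an unplaced RefSeq scaffold) encodes the stress-inducible cytosolic HSP90, which in muscle folds myosin with UNC45B. It ranged from 1160 to 2984 CPM (median 1368) in the High MB group and from 776 to 3389 CPM (median 1507) in the Low MB group. Low MB pig 4 was the highest and Low MB pig 5 the lowest. The groups differed by a log2 FC of -0.08 (SE 0.34, edgeR adjusted p = 0.971).

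HSPA5 (ENSSSCG00000005601, chr1:265930044-265934959, minus strand), the chaperone of the endoplasmic reticulum, was nearly flat over 10 of the pigs. The High MB pigs 1 to 6 had 108, 228, 90.8, 84.9, 103 and 89.9 CPM. The Low MB pigs 1 to 6 had 92.5, 121, 108, 261, 85.8 and 88.2 CPM. Apart from High MB 2 and Low MB 4, all pigs were between 84.9 and 121 CPM. This gave a log2 FC of -0.10 (SE 0.31, edgeR adjusted p = 0.947).

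DNAJB1 (ENSSSCG00000013784, chr2:64761672-64764482, plus strand), or HSP40, delivers clients to HSP70 and is among the genes most inducible by HSF1. It measured 175, 197, 148, 109, 35.4 and 89.6 CPM in High MB pigs 1 to 6. It measured 34.8, 139, 158, 139, 71.5 and 91.5 CPM in Low MB pigs 1 to 6. Each group held 1 pig near 35 CPM, High MB 5 and Low MB 1, well below the others. Between the groups it had a log2 FC of 0.25 (SE 0.39, edgeR adjusted p = 0.885), which ran from 0.07 without Low MB 1 and 0.09 without High MB 2 to 0.44 without High MB 5. In the deep libraries alone it was 0.63 (SE 0.36) and in the standard ones -0.06.

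HSPH1 (ENSSSCG00000009334, chr11:7733874-7759528, minus strand) ranged from 42.8 to 175 CPM (median 93.2) in the High MB group. In the Low MB group it ranged from 43.9 to 235 CPM (median 115). The same pair of pigs, High MB 5 and Low MB 1, was lowest, and Low MB 4 was highest. HSPH1 had a log2 FC of -0.24 (SE 0.38, edgeR adjusted p = 0.885), and 0.10 without Low MB pig 4.

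**Figure D2:**
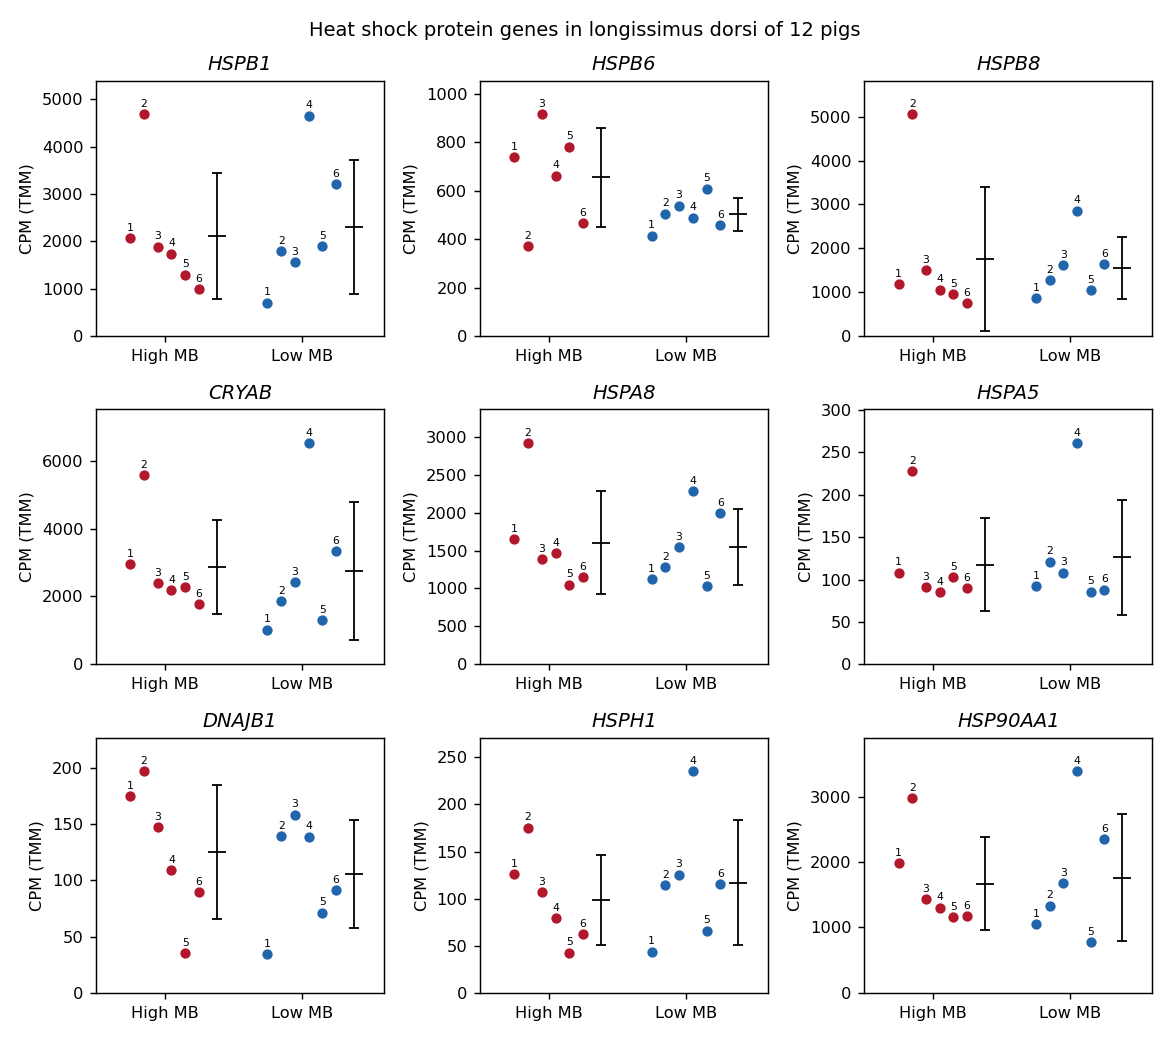
Each panel gives 1 gene, with the CPM (TMM-normalised) of every pig as a numbered point, High MB in red and Low MB in blue, and the group mean with its SD as a bar. High MB pig 2 and Low MB pig 4 are the upper points in most panels, whereas in the HSPB6 panel High MB pig 2 is the lowest point, at 370 CPM.

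The 8 genes other than HSPB6 varied together from pig to pig. Over all 36 pairs of the 9 genes, Pearson's r of log2 CPM passed an adjusted p under 0.05 for 27 pairs (permutation test with 100000 resamples, Benjamini-Hochberg over the 36), all of them among these 8 genes. The exception among their 28 pairs was HSPA5 with DNAJB1 (r = 0.44, adjusted p = 0.165). Over the 36 pairs r ran from -0.42 to 0.95 with a median of 0.78, while over all 89411878 pairs of genes tested the median was -0.003, and 4.61% reached 0.61, the lowest r that passed here. Over the 28 pairs, a subset set apart after r was seen, r ran from 0.44 to 0.95 with a median of 0.84. Spearman's rho passed for 20 of the 36 pairs, none of them with HSPA5 (adjusted p of 0.065 or more, permutation test). The closest pair was HSPA8 with HSP90AA1 (r = 0.95, rho = 0.97, adjusted p = 0.00054, permutation test), followed by CRYAB with HSP90AA1 (r = 0.94). Without High MB 2 and Low MB 4, HSPA8 and HSP90AA1 still had r = 0.94.

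**Figure D3:**
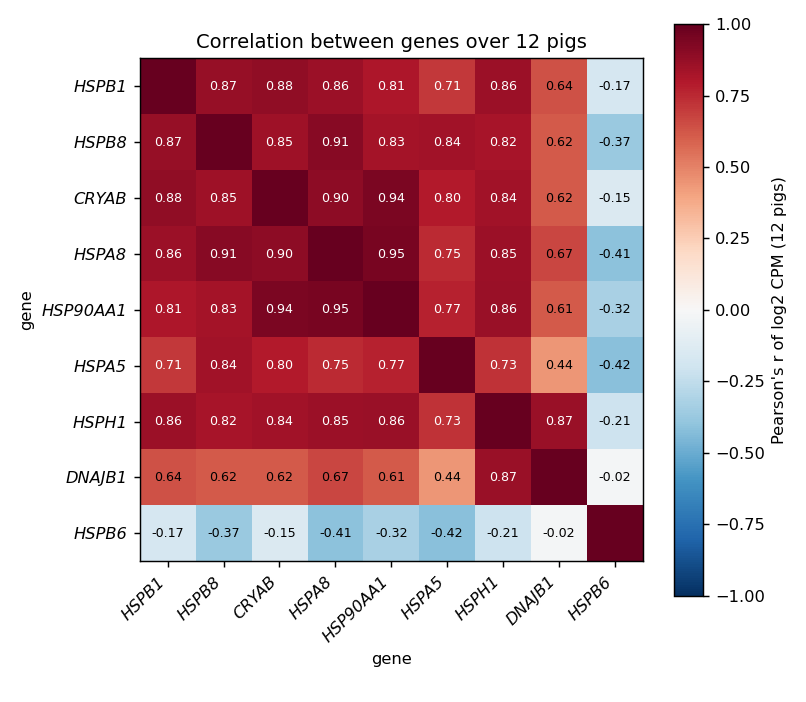
The grid gives Pearson's r of log2 CPM over the 12 pigs for each pair of genes, printed in its cell and coloured from -1 (blue) to 1 (red). The 8 genes other than HSPB6 form a red block from 0.44 to 0.95, and the HSPB6 row holds values between -0.42 and -0.02.

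A pair of pigs carried much of this covariation. High MB pig 2 ranked in the top 2 for 8 of the 8 genes and Low MB pig 4 for 7 of them, and Low MB pig 1 ranked in the bottom 2 for 6. Without High MB pig 2 and Low MB pig 4, all 28 pairs remained positive with a median r of 0.66, but 6 pairs passed and the lowest r was 0.0056. HSPA5 then had r from 0.0056 (with HSPB1) to 0.34 (with HSPH1) with the other genes of this set. In those 10 pigs the median r was 0.57 over all 36 pairs of the list, and over all gene pairs it was -0.002. Leaving out 1 pig at a time gave between 17 (without Low MB pig 4) and 27 passing pairs. Leaving out instead the 2 pigs farthest from the median of each x gene kept all 28 positive, from 0.06 to 0.94. The low muscle marker level of High MB pig 2 moved with its high chaperone levels, and its part in the result was not tested.

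The pairs were also compared within each group and depth class. Within the High MB group all 28 pairs were positive (median r = 0.90), as they were within the Low MB group (median r = 0.83), and with deviations from the group means 27 pairs passed. Each group holds 1 of the pigs that ranked highest. Without High MB 2, the other 5 High MB pigs had 27 of 28 pairs positive, with r from -0.14 to 0.97 and a median of 0.68. Without Low MB 4, the other 5 Low MB pigs had 27 of 28 positive, with r from -0.09 to 0.98 and a median of 0.72. Within the 7 standard libraries all 28 were positive (median r = 0.85), and within the 5 deep libraries 22 of 28 were, with r from -0.74 to 0.96. Every negative pair in the deep libraries held HSPA5, whose r there was -0.74 with DNAJB1 and 0.04 with HSP90AA1. After centring on the depth classes 23 pairs passed, of which 21 were among the 8 genes and 2 involved HSPB6. All 9 genes were on average lower in the deep libraries, by 0.21 (HSPB6) to 0.81 (CRYAB) on the log2 scale. None of these differences passed over the 9 tests (exact permutation tests, adjusted p of 0.189 or more).

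**Figure D4:**
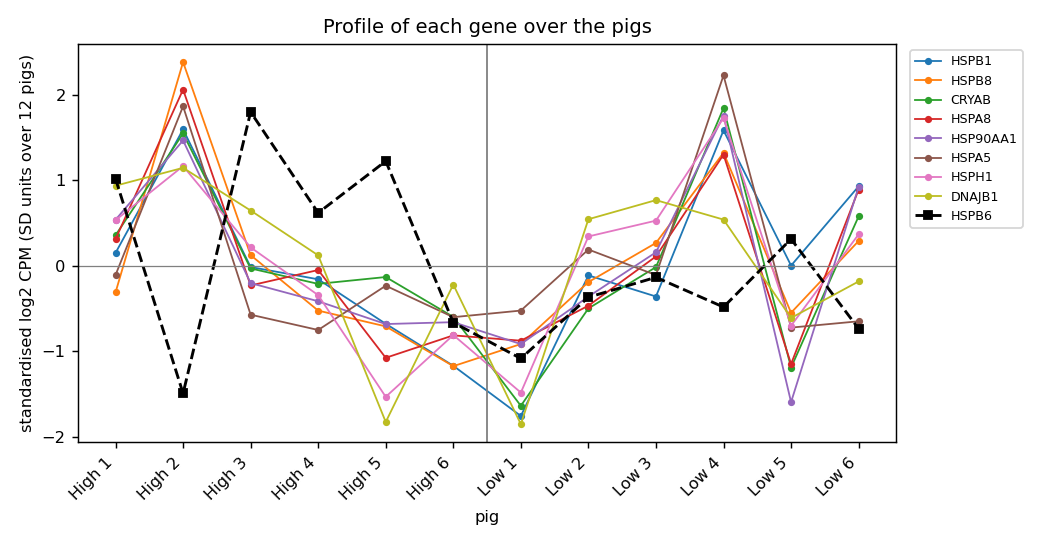
The lines give log2 CPM of each gene over the 12 pigs in units of its own SD around its own mean, High MB pigs on the left and Low MB pigs on the right of the vertical line. The coloured lines of the 8 other genes are high together at High MB 2, those of all but DNAJB1 are at their Low MB peak at Low MB 4, and the dashed black line of HSPB6 is at its lowest at High MB 2.

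HSPB6 was apart from the other 8 genes. Its r with them lay between -0.42 and -0.02 and none of the 8 pairs passed (permutation test, adjusted p of 0.222 or more). The same range was -0.03 to 0.39 without High MB 2 and Low MB 4, and -0.79 to -0.43 within the 7 standard libraries. It was -0.94 to 0.58 within the deep libraries, -0.67 to -0.29 within the High MB group and -0.32 to 0.44 within the Low MB group. After centring on the depth classes it was -0.73 to -0.18, with 2 of the 8 pairs past the threshold. HSPB6 was instead correlated with the slow fibre level, the mean log2 CPM of 6 genes of slow, oxidative fibres (TNNT1, TNNI1, TNNC1, MYL3, MYL2 and ATP2A2). Over the 12 pigs r was 0.76 (adjusted p = 0.034 over 9 tests, permutation test) and rho 0.77. Within the High MB group r was 0.90 and within the Low MB group 0.46. The relation rested in part on a few pigs, since without High MB pigs 3 and 5, the farthest from the median of HSPB6, r was 0.52 with a permutation p of 0.13. It no longer passed in deviations from the group means, or when any 1 of High MB 1, 3, 4 and 5 and Low MB 3, 5 and 6 was left out. The slow fibre level itself was higher in the High MB group, 10.41 ± 0.32 against 9.88 ± 0.33 (log2 CPM, SD, n = 6 each, exact permutation p = 0.0281), so the parts of group and fibre level in this relation cannot be told apart. In bulk muscle, more slow fibres and more RNA per fibre cannot be told apart either. The other 8 genes had r between -0.50 and -0.20 with the slow fibre level, none of which passed (permutation test, adjusted p of 0.226 or more).

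The gene whose profile was most like that of HSPB6 was its neighbour LIN37, a subunit of the DREAM cell cycle complex, with r = 0.997 over the 12 pigs (0.998 without High MB pig 2 and Low MB pig 4). LIN37 lies on the plus strand at chr6:45175454-45181383 and ends 55 bases from the end of HSPB6 on the minus strand, so the genes converge. The CPM of LIN37 was 0.986 ± 0.0219 times that of HSPB6 (SD, n = 12), between 0.948 and 1.015 in single pigs. The 2 genes cannot be told apart by their counts in these pigs, and the values of HSPB6 are uncertain for this reason. Whether reads of one gene were counted for the other was not tested. The next in likeness were ZNF672 (r = 0.930), ENSSSCG00000013988 (0.917), ENSSSCG00000032547 (0.899) and MRPS6 (0.889).

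**Figure D5:**
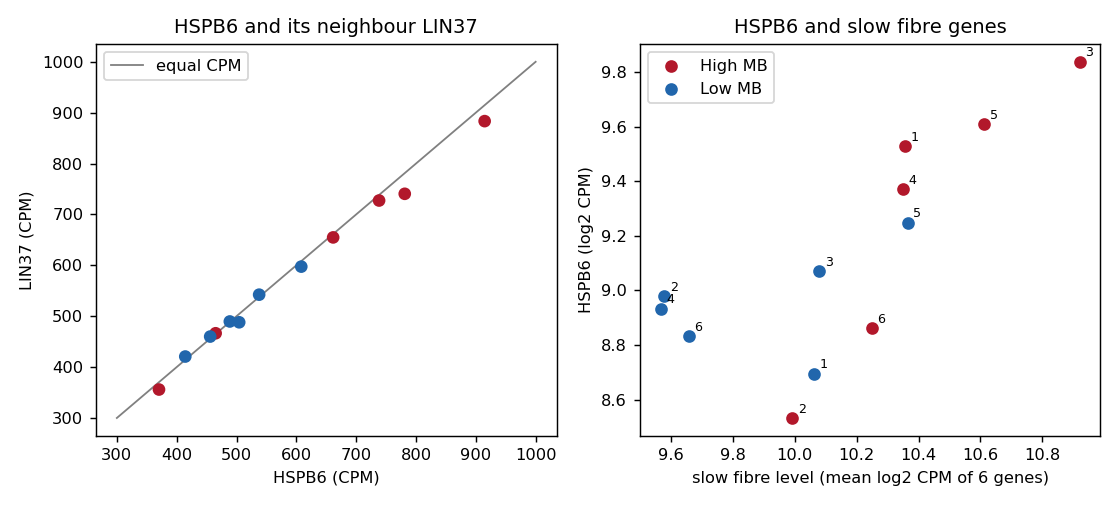
On the left, the CPM of LIN37 is plotted against that of HSPB6 for the 12 pigs with a line of equal CPM, and on the right the log2 CPM of HSPB6 against the slow fibre level, with pig numbers (High MB red, Low MB blue). All points on the left lie near the line (ratio 0.948 to 1.015), and on the right r is 0.76.

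DNAJB1 was followed most closely by ENSSSCG00000008954 (r = 0.930), ENSSSCG00000040072 (0.920), the inducible HSP70 gene HSP70.2 (0.909), ADM (0.903), which encodes the vasodilator adrenomedullin, and RNGTT (0.894). Of these, ENSSSCG00000008954 (0.29 to 4.00 CPM) and ENSSSCG00000040072 (0 to 2.68 CPM) were near the floor, so their r is less certain. HSP70.2 measured from 37.4 CPM in High MB pig 5 to 597 CPM in High MB pig 2, and it was also low in Low MB pig 1 (87.9 CPM). High MB 5 and Low MB 1 were thus the lowest pigs for DNAJB1 and HSP70.2 alike. Since HSP70.2 was named here for its likeness to DNAJB1, that r is a description. Its r was 0.776 with HSPH1, 0.650 with HSPA8 and -0.264 with HSPB6. Its log2 FC was 0.40 (SE 0.48), from 0.18 without High MB 2 to 0.63 without High MB 5. It was 1.11 (SE 0.44, edgeR adjusted p = 0.999) in the deep libraries alone and -0.06 in the standard ones, and near-identical HSP70 copies make its counts uncertain. HSPA5 was most like ABHD5 (r = 0.964), the activator of the fat lipase ATGL, then LRRC42 (0.963), KBTBD7 (0.961), ENSSSCG00000037081 (0.952) and PXK (0.943). These likenesses leaned on High MB pig 2 and Low MB pig 4, without which r was 0.780 for ABHD5 and 0.364 for PXK.

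The wider chaperone network was read from 105 genes in 9 lists, of which 89 had a row and 87 were tested. None was called by edgeR, beside 0.0% of all genes. At an unadjusted p under 0.05, HSPA12B (log2 FC 0.30) was higher and ST13 (-0.24), BAG6 (-0.31) and VBP1 (-0.19) were lower in the High MB group, 4 of 87 against 8.46% of all genes. These 4 were named after their values were seen. The log2 FC was negative for 67 of the 87, with a median of -0.10, whereas it was negative for 53.1% of all genes with a median of -0.02. Without Low MB pig 4 the split was 43 negative and 44 positive with a median of 0.00075, against 48.2% of all genes negative with a median of 0.0089. Without both High MB 2 and Low MB 4 it was 60 negative of 87 (median -0.07), against 50.02% of all genes, and in the deep libraries, which hold neither pig, 53 of 87, against 47.9% of all genes. With upper quartile size factors it was 57 negative of 87, against 42.8% of all genes.

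Among the heat shock factors, 0 of 3 were positive: HSF1, the main stress-responsive factor, had -0.18 (SE 0.092, edgeR p = 0.0699, exact permutation p = 0.0303), HSF2 had -0.31 (0.03 without Low MB pig 4) and HSF4 -0.02. HSF1 itself measured 58.8 to 68.8 CPM in High MB pigs and 65.6 to 83.0 CPM in Low MB pigs, a narrower range than that of any of the 9 genes. Of the other small heat shock proteins HSPB3, of muscle, was tested (-0.11). The other cytosolic HSP70 and HSP110 genes had 5 of 8 positive, from HSPA4L (-0.24) to HSP70.2 (0.40). HSPA4L ran from -0.43 to -0.14 when single pigs were left out. The other HSP40 genes had 1 of 14 positive, DNAJA4 (0.27), and DNAJB5 was the lowest (-0.44, SE 0.21, and -0.27 without Low MB pig 4). DNAJA4 ranged from -0.20 to 1.12 when single pigs were left out. DNAJB6, mutated in a limb-girdle muscular dystrophy and the most abundant HSP40 of this list, had -0.12.

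Of HSP90 and its cochaperones, 1 of 17 was positive, STUB1 (0.02), and the HSP70-HSP90 organising protein STIP1 was the lowest (-0.35, and -0.05 without Low MB pig 4). HSP90AB1, the constitutive cytosolic HSP90, had -0.12 (0.12 without that pig). In the list of BAG proteins and chaperone-assisted autophagy 1 of 10 was positive, BAG1 (0.10), and SYNPO2, which links BAG3 to autophagosome membranes, was the lowest (-0.37, and -0.09 without Low MB pig 4). FLNC, the filamin C that this route removes, had -0.30 and changed sign without Low MB pig 4 (0.15). The endoplasmic reticulum chaperones had 10 of 16 positive, from DNAJB9 (-0.18) to CRELD2 (0.23, and 0.03 without High MB pig 2), with P4HB, protein disulphide isomerase, at -0.02. Of the mitochondrial chaperones 1 of 7 was positive, TRAP1 (0.03), with HSPA9, or mortalin, at -0.10 (0.11 without Low MB pig 4). The chaperonin and prefoldin genes had 1 of 11 positive, PFDN5 (0.01), with PFDN4 at -0.38 and CCT3 at -0.24 (0.08 without Low MB pig 4). None of the genes named in these 9 lists had an edgeR adjusted p under 0.10.

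Some of the network genes had a profile like that of HSPA8, given as a description over the 12 pigs, in which each pair of values comes from the same library. The r with HSPA8 was 0.918 for HSP90AB1, 0.878 for CCT3, 0.858 for FLNC, 0.840 for DNAJA4 and 0.820 for STIP1, and -0.909 for STUB1. Without High MB 2 and Low MB 4 it was 0.901, 0.849, 0.709, 0.635 and 0.894 for the same 5 genes in that order, and -0.766 for STUB1. Across the 8 genes other than HSPB6, r ran for HSP90AB1 from 0.645 with DNAJB1 to 0.976 and for CCT3 from 0.621 with DNAJB1 to 0.953. HSF1 had r = -0.509 with HSPA8 (-0.598 without the 2 pigs) and HSF2 had 0.750 (0.488 without them). Low MB pig 4 was the highest pig for HSP90AB1, CCT3, FLNC, DNAJA4, STIP1 and HSF2.

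Within a group, MB content was not detectably related to any of the 9 genes. Of 18 exact permutation tests (9 genes in 2 groups of 6 pigs), each had an adjusted p of 0.965. MB content was not correlated over all 12 pigs, since the groups are separate ranges of that value.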

How the data were processed

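Libraries from a NEBNext Ultra kit, 1 per pig, were sequenced as paired reads. Per the labels and the study's methods, the authors used Trim Galore for trimming, HISAT2 for alignment (Sscrofa11.1) and HTSeq for counting, and the deposited values are raw counts per gene, not normalised. The annotation release and the strand setting were not given in the sources used here. Counts without a feature were left out. They were 50.9% to 52.0% of the sum of gene counts, counts without a feature and ambiguous counts in each library. Transcript tables were not used.

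Group differences were tested with edgeR 4.0.16 (TMM, filterByExpr, quasi-likelihood, no covariate) in R 4.3.3, with Benjamini-Hochberg adjustment over all 13373 genes. DESeq2 1.42.0 was an alternative. Both were tested on simulated data. Log2 CPM used a prior count of 2. Single genes had two-sided exact permutation tests over 924 regroupings. Symbols, lengths and sequences came from the deposited tables' identifiers and RefSeq (Sscrofa11.1).

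The genes and lists were chosen with earlier results of these data known. Named genes were the list itself, the highest, lowest and most abundant gene of each of 9 network lists, and the 5 genes most like HSPB6, DNAJB1 and HSPA5. Of the markers, TTN, MB, MYLPF, MYH7, MYH1, MYH2, MYH4, CIDEA, VWF and HBA1 were not analysed here. Summed markers had medians in the High and Low MB groups of 75.1 and 28.9 CPM (adipocyte), 843 and 574 (fibroblast), 122 and 91.0 (endothelial), 37.8 and 24.2 (macrophage) and 85.1 and 59.6 (erythroid).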

Additional observations from a re-analysis of the deposited data

Results flagged for a closer look

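Among 20 sets of 6 values tested for an outlying pig (the 9 genes and the slow fibre level in each group), 3 had one beyond Dixon's critical value. In independent sets chance gives about 1 in 20. These sets share pigs and correlated genes, so the 3 cannot be set against that rate. The gap of High MB pig 2 to the next pig, over the group's range of log2 CPM, was 0.6348 for HSPB8 and 0.7545 for HSPA5. For HSPA5 in the Low MB group the gap of pig 4 was 0.6904. These are the pigs that also carried much of the covariation of the 8 genes.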

How the results depend on the processing

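None of the 9 genes was called in any of the alternatives. The number of genes called among all was 0 in each, except 29 with DESeq2 and 1 in the deep libraries alone, and 0 with each pig left out in turn. The pairs that passed were between 17 and 27 with single pigs left out and 6 without both High MB 2 and Low MB 4. The genes passing with the slow fibre level were 0 to 1 with single pigs left out and 0 in deviations from the group means. The causes were not tested, and the subsets with pigs left out also hold fewer pigs. Individual numbers are shared between the groups but same-numbered pigs did not deviate together (r between -0.21 and 0.14), so no pairing was used in the main fit. Whether a number marks anything else shared was not tested. With the replicate block 0 genes were called, and the log2 FC was -0.085 for HSPB8, 0.016 for HSP90AA1 and 0.00058 for HSPB3, each of opposite sign to the fit without the block.

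Other fold changes whose sign turned, none past the threshold in either fit, were as follows. With the depth class as a covariate HSPB8 was -0.050, CRYAB -0.044 and HSPA8 -0.0086. With upper quartile size factors HSF4 was 0.040 and P4HB 0.033. Without High MB 2 and Low MB 4, HSPB8 was -0.21, HSPA8 -0.032, HSF4 0.066, HSPB3 0.12, DNAJB6 0.029 and P4HB 0.045. In the deep libraries HSPB8 was -0.34, HSPA8 -0.034, HSPA5 0.018, HSF4 0.19, HSPB3 0.17, DNAJB6 0.073 and P4HB 0.13. In the standard libraries CRYAB was -0.12, DNAJB1 -0.065, HSP70.2 -0.057, TRAP1 -0.051 and PFDN5 -0.00093.

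With single pigs left out the log2 FC ran from -0.52 to 0.21 for HSPB1, -0.49 to 0.45 for HSPB8, -0.23 to 0.54 for CRYAB, -0.18 to 0.22 for HSPA8, -0.39 to 0.26 for HSPA5, -0.47 to 0.10 for HSPH1 and -0.31 to 0.24 for HSP90AA1. In the lists it ran from -0.053 to 0.038 for HSF4, -0.48 to 0.026 for HSF2, -0.23 to 0.23 for HSPB3, -0.20 to 1.12 for DNAJA4, -0.0080 to 0.10 for STUB1, -0.27 to 0.12 for HSP90AB1, -0.64 to 0.15 for FLNC, -0.079 to 0.11 for P4HB, -0.026 to 0.14 for TRAP1, -0.23 to 0.11 for HSPA9, -0.015 to 0.040 for PFDN5 and -0.41 to 0.081 for CCT3. HSPB6 kept its sign under all 22 alternatives. DNAJB1 kept its sign with single pigs left out (0.067 to 0.44). The log2 FC was under 1 standard error for the other 8 genes, and about 2 standard errors for HSPB6 (0.39, SE 0.19).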
